A study of Homo sapiens with 18 samples.

Results

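Translation initiation factors are described here in MM1S cells, which are glucocorticoid-responsive human multiple myeloma cells, and in MM1R cells, a line of the same origin that lacks the glucocorticoid receptor, upon treatment with the ferroptosis inducer RSL3. The members are the eIF1 to eIF6 factors, their regulators and the eIF2 kinases. A row of the count table was taken if its symbol began with EIF and a digit from 1 to 6, did not end in P with or without a number, and had at least 10 counts in at least 3 libraries. Of 43735 rows, 63 carried such a symbol, 4 were left out by their ending, 9 did not reach the counts, and 50 were members. All 50 also passed the filter on low counts that left 14281 genes for testing.

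RNA of bulk cultures was sequenced from 3 untreated libraries, 3 libraries of cells exposed for 3 h to RSL3 (5 µM) and 3 libraries of cells that were also given ferrostatin-1 (Fer-1, 2 µM), starting 2 h earlier, for each of the lines. RSL3 inactivates GPX4, the enzyme that detoxifies lipid peroxides, and Fer-1 traps the radicals that carry lipid peroxidation. The 3 libraries of a group came from passages 4, 6 and 7 of MM1R cells and from passages 16, 22 and 23 of MM1S cells, so every passage supplied 1 library per treatment, and values are listed below in this order. Both lines derive from the same parental myeloma line and were grown without other cells, and a p-value here measures the spread between passages of each line, not between patients.

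In eukaryotes, eIF2 bound to GTP brings the initiator methionyl-tRNA to the ribosome, and the exchange factor eIF2B reloads eIF2 with GTP after each round. The kinases HRI (EIF2AK1), PKR (EIF2AK2), PERK (EIF2AK3) and GCN2 (EIF2AK4) phosphorylate eIF2 under different stresses, which blocks eIF2B, lowers general translation and favours mRNAs such as ATF4. Messenger RNAs enter through eIF4F, made of the cap-binding eIF4E, the scaffold eIF4G and the helicase eIF4A, while eIF3, eIF1, eIF1A, eIF5 and eIF5B act on ribosome loading, choice of the start codon and subunit joining. Plasma cells, from which myeloma arises, secrete large amounts of protein, and PERK is a sensor of the unfolded protein response beside IRE1 and ATF6.

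Total counts per library were 17635438 to 19368343. All 8 plasma cell markers fixed for the check were above 1 CPM (read count scaled to the library's size after TMM normalization) in every library, with a summed level of 4381 to 6243 CPM, whereas 12 of the 15 markers of T, B, myeloid, stromal and epithelial cells stayed under 1 CPM throughout and the sum of the 15 was 7.40 to 27.4 CPM. The library labelled MM1R with Fer-1 and RSL3 at passage 6 stood apart. Its level of NR3C1, the glucocorticoid receptor gene, was 50.2 CPM, against 13.8 to 22.3 CPM in the other MM1R libraries and 89.9 to 392 CPM in MM1S libraries. Over 12 genes at least 8-fold higher in MM1S than in MM1R cells, it held a median of 45.7% of the MM1S level, against -0.513 to 3.19% in the other 8 MM1R libraries. Results that use this library are therefore given with and without it. In bulk RNA, fewer cells of a kind and less RNA per cell cannot be told apart.

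Starts of some of the called members are shown. Those of EIF2AK3 and its divergent transcript were taken because their windows overlap, and those of EIF5 and EIF1 because their differences were among the largest. The sequences are from RefSeq (GRCh38.p14) and cover 250 bases before to 50 bases after a start. Each had 1 exact match in hg19 (GRCh37), at chr2:88926933-88927232 on the minus strand for EIF2AK3, chr2:88927097-88927396 on the plus strand for EIF2AK3-DT, chr14:103800324-103800623 on the plus strand for the first of the EIF5 starts and chr17:39844887-39845186 on the plus strand for EIF1. Capitals mark matches on either strand to CCAAT (the NF-Y box), TGACGT (the core of the cAMP response element), GAANNTTC (a heat shock element) or TGACNNNGC (the antioxidant response element), and no shown sequence matched TGATGNAA (the C/EBP-ATF element).
EIF2AK3: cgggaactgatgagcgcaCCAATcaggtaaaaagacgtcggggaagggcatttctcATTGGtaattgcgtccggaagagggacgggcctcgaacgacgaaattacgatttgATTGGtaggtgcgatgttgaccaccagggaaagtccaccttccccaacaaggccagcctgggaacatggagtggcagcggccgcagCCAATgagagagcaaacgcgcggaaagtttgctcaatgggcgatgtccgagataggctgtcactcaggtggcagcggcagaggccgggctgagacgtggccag
EIF2AK3-DT: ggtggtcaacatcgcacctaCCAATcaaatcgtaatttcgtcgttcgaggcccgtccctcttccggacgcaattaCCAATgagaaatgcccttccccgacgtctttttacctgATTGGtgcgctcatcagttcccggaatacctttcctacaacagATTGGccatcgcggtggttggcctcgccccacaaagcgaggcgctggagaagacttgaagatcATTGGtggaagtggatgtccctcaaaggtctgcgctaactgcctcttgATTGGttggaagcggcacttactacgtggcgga
EIF5: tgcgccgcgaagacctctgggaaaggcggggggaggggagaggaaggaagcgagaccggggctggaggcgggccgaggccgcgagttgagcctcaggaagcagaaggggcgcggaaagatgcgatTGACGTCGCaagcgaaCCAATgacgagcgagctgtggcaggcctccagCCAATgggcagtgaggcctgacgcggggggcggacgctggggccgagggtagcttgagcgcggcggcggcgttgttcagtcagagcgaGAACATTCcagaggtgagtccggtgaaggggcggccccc
EIF1: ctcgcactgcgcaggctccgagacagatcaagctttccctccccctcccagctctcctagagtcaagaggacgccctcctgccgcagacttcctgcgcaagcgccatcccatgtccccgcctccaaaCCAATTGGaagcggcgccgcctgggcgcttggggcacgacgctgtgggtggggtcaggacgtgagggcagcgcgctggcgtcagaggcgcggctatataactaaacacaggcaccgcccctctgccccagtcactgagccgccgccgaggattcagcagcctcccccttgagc

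The EIF2AK3 and EIF2AK3-DT starts lie on opposite strands, 365 bases apart, and their windows share 136 bases. The EIF2AK3 window held CCAAT 4 times and the EIF2AK3-DT window 6 times, counting shared sites in both, while 0.991% of the 35116 RefSeq starts held it at least 4 times and 34.6% at least once. Among 54 starts of the 42 members found in RefSeq, 19 held CCAAT. In the EIF5 window, CCAAT occurred 2 times and TGACGT overlapped TGACNNNGC, which were found at 7.98% and 13.3% of all starts, and GAANNTTC, found at 6.77% of all starts, occurred once. The CCAAT matches of EIF1 overlap on opposite strands. Windows of other called members, not shown, held fewer matches. Those of EIF2AK4 and EIF2B5 held none of these motifs. EIF2B4 had CCAAT once at 1 of its starts and no motif at the other, and the second EIF5 start had only TGACNNNGC, once. TGATGNAA was present at 3.62% of all starts and at 1 of the 54 member starts. These matches are letters in a window and carry no measurement of binding.

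Before treatment, levels per transcript length spanned a wide range. In CPM per kilobase of the Ensembl canonical transcript, EIF4G2, a scaffold related to eIF4G that lacks the eIF4E site, was highest at 346 ± 18.6 in MM1R and 416 ± 17.0 in MM1S cells (SD, n = 3), followed by EIF4A2 at 208 ± 19.2 and 231 ± 13.2. EIF4G1 stood at 167 and 185 CPM per kb, far above its paralogue EIF4G3 at 8.02 and 8.01. EIF1, which guards start codon choice, was at 182 ± 8.88 and 194 ± 38.9 CPM per kb and its paralogue EIF1B at 29.0 and 26.6.

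Per transcript length, the kinases fell into an order in which HRI led. EIF2AK1 was at 70.2 ± 5.26 CPM per kb in MM1R and 57.3 ± 0.908 in MM1S cells, EIF2AK3 at 19.6 ± 3.91 and 22.5 ± 3.73, EIF2AK4 at 11.7 ± 0.926 and 13.7 ± 1.90 and EIF2AK2 at 8.69 ± 0.296 and 9.30 ± 0.900. The ranges of the 3 libraries did not overlap between neighbours in this order in either line. The order below HRI rests on the canonical lengths, such as 9975 bases for EIF2AK2 and 5538 for EIF2AK4. In CPM, without division by length, EIF2AK2 was above EIF2AK4 in every untreated library, with means of 86.7 and 64.9 in MM1R cells. Among the eIF2 subunits, the alpha subunit EIF2S1, which carries the phosphorylated serine, was at 23.8 and 25.1 CPM per kb, below EIF2S2 (beta) at 102 and 117 and EIF2S3 (gamma) at 84.6 and 107. The eIF2B subunits ranged from EIF2B2 (8.06 and 6.55) to EIF2B5 (46.8 and 52.7), and the eIF3 members from EIF3CL (3.83 and 3.84) to EIF3I (197 and 174). EIF3CL and EIF3C (6.75 and 5.89) are near-identical copies, so their low levels may reflect how reads were counted. EIF2S3B, a retrocopy of EIF2S3, was lowest at 0.208 and 0.383 CPM per kb, with 8 to 22 counts per library.

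**Figure D1:**
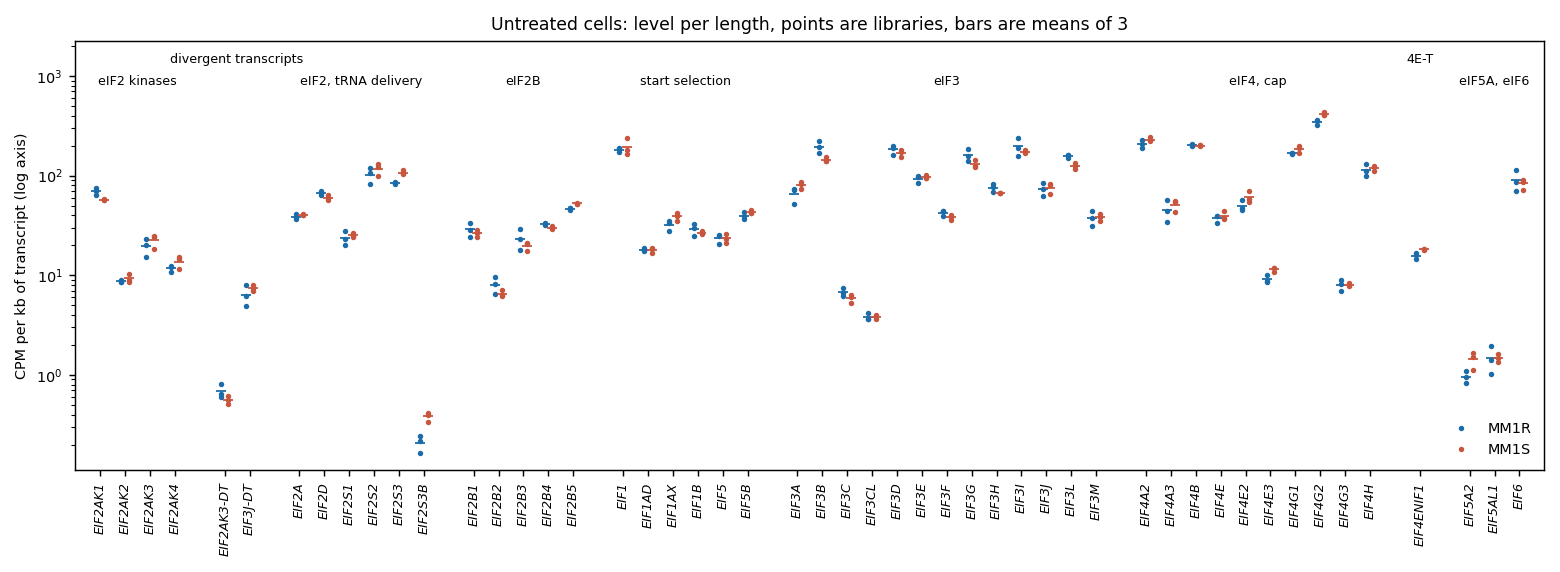
Untreated level of each member in CPM per kilobase of its canonical transcript (log axis), grouped by role, in MM1R and MM1S cells, with points for the libraries and bars at the means of 3. EIF4G2 is highest (346 and 416) and EIF2S3B lowest (0.208 and 0.383).

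Some main factors were nearly without counts. EIF4A1, the principal eIF4A helicase, had 0 counts in all 18 libraries, EIF5A had 1 to 6 and EIF3K 0 to 1. The EIF4A1 gene overlaps the readthrough gene SENP3-EIF4A1 over 5892 bases, and EIF5A and EIF3K are among 2362 symbols with more than 1 row in the table, of which 13.2% reached 10 counts in 3 libraries against 35.8% of the other 39011 symbols. How reads on such genes were counted is not given in the sources used here, so these 3 genes are not described, and their pairs EIF4A1 with EIF4A2 and EIF5A with EIF5A2 could not be compared.

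Upon RSL3 treatment, averaged over both lines, 7 members rose and 3 fell. PERK and GCN2 rose among the kinases, EIF5 and EIF1 among the start codon factors and EIF4E3 among the cap-binding proteins. EIF1AD, a protein with an eIF1A-like domain, and the divergent transcript EIF2AK3-DT rose too, whereas EIF2B4, EIF2B5 and EIF5B fell. These 7 of 50 members compare with 8.7% of all 14281 genes that rose, and the 3 with 6.81% that fell, in the quasi-likelihood test of edgeR with Benjamini-Hochberg adjusted p-values (FDR under 0.05), and the median log2 fold change was -0.01 over members against -0.000133 over all genes. The shares of members were thus near those of all genes. EIF2AK3 and EIF2AK3-DT were the 2 members that also changed more than 2-fold, where 3.24% of all genes did. With the passage as a block, 10 members rose and 9 fell, against 14.9% and 15.5% of all genes.

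The largest difference was that of EIF2AK3 (chr2:88856259-88991036 in hg19, minus strand), the endoplasmic reticulum kinase PERK. In MM1R cells its level was 105, 92.0 and 70.0 CPM without treatment, 354, 127 and 249 CPM with RSL3 and 151, 144 and 144 CPM with Fer-1 and RSL3. MM1S cells had 82.4, 113 and 109.8 CPM without treatment, 589, 208 and 175 CPM with RSL3 and 137, 165 and 175 CPM with Fer-1 and RSL3. Every RSL3 library lay above every untreated library of its line, yet the RSL3 libraries of a line differed from each other by more than the untreated ones did, with passage 16 highest and passage 6 lowest.

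Averaged over lines, EIF2AK3 rose 2.95-fold (log2 fold change 1.56 ± 0.270 SE, FDR 0.00122 in edgeR's quasi-likelihood test), with 1.45 ± 0.380 (FDR 0.0457) in MM1R and 1.67 ± 0.382 (FDR 0.0239) in MM1S cells. Within passages, the log2 difference of RSL3 from untreated was 1.75, 0.47 and 1.83 in MM1R and 2.84, 0.87 and 0.67 in MM1S cells. Without the MM1S RSL3 library of passage 16 the averaged value was 1.18 and kept its call. That in MM1S cells alone dropped to 0.91 (FDR 0.145), and it also lost its call without any 1 of the 3 untreated MM1S libraries, with an FDR reaching 0.125. In MM1R cells the call was held in 4 of 18 omissions, those of the RSL3 library of passage 6 or of any 1 MM1S RSL3 library, and the value was 1.08 (FDR 0.232) without the RSL3 library of passage 4.

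EIF2AK3-DT (chr2:88927057-88931339, plus strand) is a non-coding transcript on the other strand that the annotation places wholly inside the span of EIF2AK3, and it had 16 to 78 counts per library. In MM1R cells its level was 1.30, 0.980 and 1.04 CPM without treatment, 3.92, 1.41 and 1.31 CPM with RSL3 and 2.02, 1.46 and 1.47 CPM with Fer-1 and RSL3. The MM1S levels were 0.828, 0.992 and 0.903 CPM, then 5.12, 2.02 and 1.76 CPM, and 2.64, 1.53 and 1.99 CPM in the same order of treatments. The RSL3 libraries lay above the untreated ones in both lines, in MM1R cells only just, and the highest values came at passages 4 and 16, as for EIF2AK3. At passage 7 they parted, with a log2 difference of RSL3 from untreated of 0.30 for EIF2AK3-DT and 1.83 for EIF2AK3.

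For EIF2AK3-DT, the averaged log2 fold change was 1.34 ± 0.318 (FDR 0.00994, edgeR's quasi-likelihood test), with 1.00 (FDR 0.243) in MM1R and 1.69 (FDR 0.0482) in MM1S cells. The MM1S call was kept only without any 1 MM1R RSL3 library or the MM1S RSL3 library of passage 22 or 23, and lost in the other 13 of 18 omissions, with a value of 1.06 (FDR 0.290) without the RSL3 library of passage 16. The averaged call was kept in all 18, at 0.99 without the MM1R RSL3 library of passage 4. Use of strand in counting is not stated, and the transcript lies within the annotated span of EIF2AK3 over its whole length. Exons were not compared, so whether its reads were kept apart from those of EIF2AK3 is unknown. Its values are therefore not taken as independent of that gene.

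EIF2AK4 (chr15:40226316-40327792, plus strand), the amino acid sensor GCN2, was at 69.1, 66.4 and 59.2 CPM in untreated MM1R cells, 101, 84.4 and 82.6 CPM with RSL3 and 69.7, 73.6 and 62.0 CPM with Fer-1 and RSL3. The MM1S values were 64.0, 83.6 and 80.4 CPM, 121, 91.5 and 88.7 CPM, and 68.7, 88.1 and 81.8 CPM. RSL3 libraries were above untreated libraries in both lines, and the libraries with Fer-1 and RSL3 overlapped the untreated ones. EIF2AK4 rose 1.35-fold upon RSL3 (log2 fold change 0.43 ± 0.101, FDR 0.00913, edgeR's quasi-likelihood test), and the call was kept in all 18 omissions of a library (0.36 to 0.47). Its per-line values of 0.46 (FDR 0.0862, and 0.0411 with the passage block) in MM1R and 0.40 (FDR 0.130) in MM1S cells missed the threshold.

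EIF2AK1, the haem-regulated kinase HRI, was at 285, 332 and 312 CPM in untreated and 307, 309.9 and 299.7 CPM in RSL3-treated MM1R cells, and at 257, 249.6 and 251 CPM and 224, 245 and 251 CPM in MM1S cells. Its groups overlapped in both lines, at a log2 fold change of -0.05 (FDR 0.673, edgeR's quasi-likelihood test). EIF2AK2, the double-stranded RNA sensor PKR, was at 85.1, 84.9 and 90.1 CPM in untreated and 63.9, 81.1 and 71.3 CPM in RSL3-treated MM1R cells, and at 89.4, 85.9 and 103 CPM and 60.5, 76.5 and 87.6 CPM in MM1S cells. It was lower with RSL3 in all 6 passages, with a log2 fold change of -0.29 that missed the threshold (FDR 0.0838) and passed it with the passage block (FDR 0.0224).

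**Figure D2:**
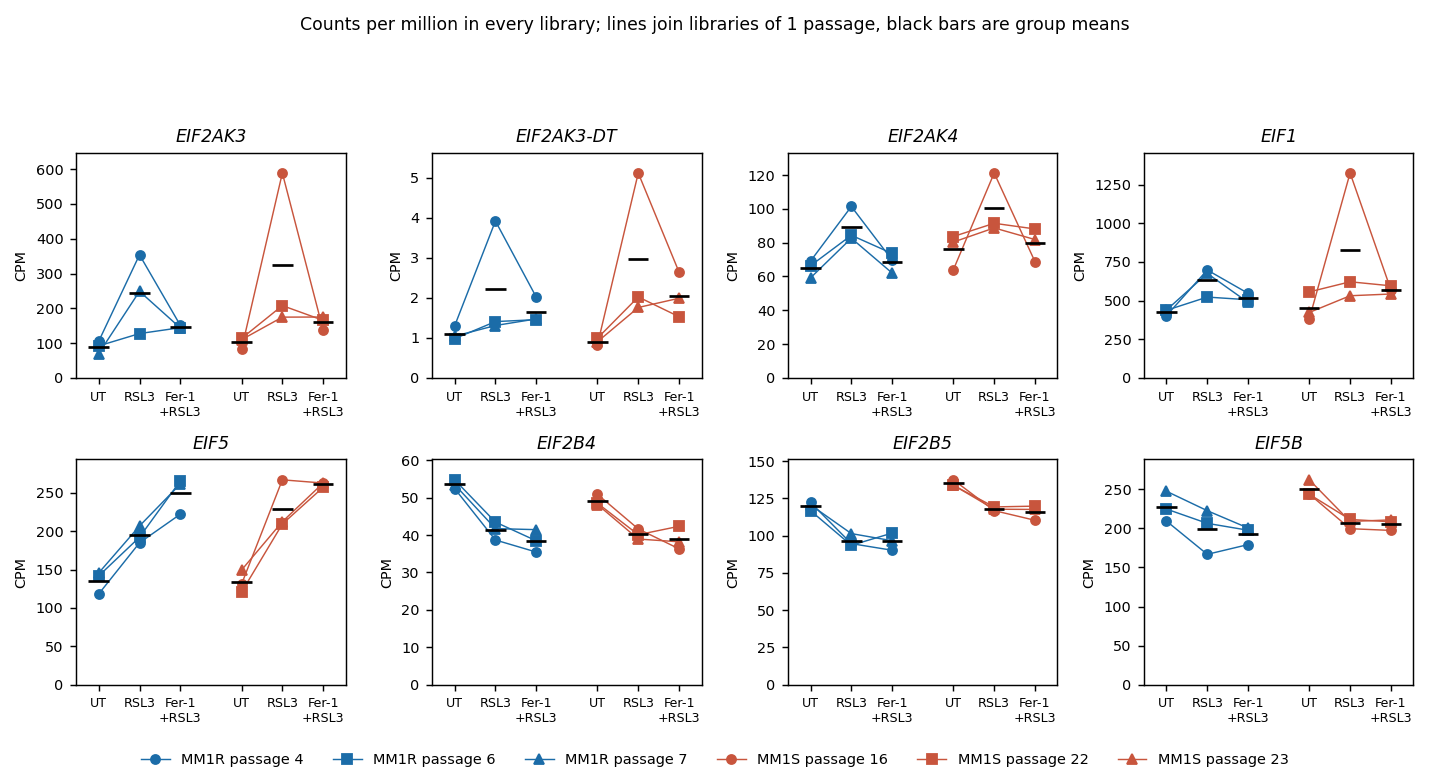
Level in CPM of 8 members in each of the 18 libraries, by treatment (untreated, RSL3, Fer-1 and RSL3) and line, with lines joining libraries of 1 passage and black bars at group means. EIF2AK3 with RSL3 ranges from 127 to 589 CPM, whereas EIF5 with RSL3 stays between 185 and 267 CPM.

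The eIF2 subunits had smaller differences than PERK. EIF2S1, the substrate of the kinases, was at 83.7, 96.9 and 116 CPM in untreated and 75.7, 96.1 and 94.6 CPM in RSL3-treated MM1R cells. In MM1S cells it was at 99.96, 103 and 110.3 CPM and at 72.9, 90.3 and 106 CPM, so the groups overlapped in both lines. EIF2S2 had 213, 269 and 302 CPM against 295, 297 and 323 CPM in MM1R cells, and 251, 335 and 313 CPM against 355, 364 and 358 CPM in MM1S cells, where the groups did not overlap. EIF2S3 had 291, 301 and 286 CPM against 363, 329 and 337 CPM in MM1R cells without overlap, and 389, 359 and 365 CPM against 409.7, 367 and 378 CPM in MM1S cells with overlap.

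Of the 6 members that deliver the initiator tRNA, 0 were called upon RSL3 in edgeR's quasi-likelihood test, where 8.7% of all genes rose and 6.81% fell. An unadjusted p under 0.05 was found for 2 (30.2% of all genes), and DESeq2 called 0. Averaged log2 fold changes lay between -0.18 (EIF2S1, FDR 0.280) and 0.24 (EIF2S2, FDR 0.0838). EIF2S3 was at 0.14 (FDR 0.133). With the passage block the 3 subunits passed, EIF2S1 as lower (FDR 0.0295) and EIF2S2 and EIF2S3 as higher (FDR 0.00858 and 0.0419). EIF2S3 and EIF2S3B share sequence, so their split of reads is uncertain.

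All 5 subunits of eIF2B had negative averaged differences, as 27 of the 50 members had, with a median log2 fold change of -0.17. Of the 5, 2 fell, where 6.81% of all genes did. EIF2B3 was near 0, at -0.01 averaged and 0.02 in MM1S cells. EIF2B4 (delta, chr2:27587219-27593205, minus strand) was at 52.4, 54.8 and 53.5 CPM in untreated MM1R cells, 38.7, 43.5 and 41.7 CPM with RSL3 and 35.5, 38.5 and 41.4 CPM with Fer-1 and RSL3. Its MM1S values were 50.9, 48.5 and 48.2 CPM, 41.6, 40.1 and 38.9 CPM, and 36.3, 42.3 and 38.2 CPM. Untreated libraries were above all treated libraries in both lines.

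EIF2B5 (chr3:183852826-183863915, plus strand), the catalytic epsilon subunit, was at 122, 117 and 121 CPM in untreated MM1R cells, 94.6, 93.5 and 101 CPM with RSL3 and 90.2, 102 and 96.5 CPM with Fer-1 and RSL3. Its MM1S values were 137, 134 and 134 CPM, 117, 119 and 118 CPM, and 110.2, 119.7 and 118 CPM. Every treated library was below every untreated library of its line. EIF2B4 fell by 0.33 ± 0.065 on the log2 scale (FDR 0.00277) and EIF2B5 by 0.25 ± 0.055 (FDR 0.00589, edgeR's quasi-likelihood test), and both calls were kept in all 18 omissions.

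Within passages both genes were lower with RSL3 in all 6. The log2 difference of EIF2B4 was -0.44, -0.33 and -0.36 in MM1R and -0.29, -0.27 and -0.31 in MM1S cells. That of EIF2B5 was -0.37, -0.32 and -0.25 in MM1R and -0.23, -0.16 and -0.19 in MM1S cells. Every MM1R value was thus below every MM1S value for both genes, but the interaction of line and RSL3 called no member. In MM1R cells alone the values were -0.38 for EIF2B4 (FDR 0.0342) and -0.31 for EIF2B5 (FDR 0.0379), and in MM1S cells -0.29 (FDR 0.0862, and 0.0318 with the passage block) and -0.20 (FDR 0.180). Leaving out a library ended the MM1R call of EIF2B4 in 9 and that of EIF2B5 in 13 of 18 cases, any untreated or RSL3 library of MM1R among them, with an FDR of up to 0.164 and 0.147. The other omissions that ended it were those of the MM1S untreated libraries of passages 22 and 23 and the Fer-1 and RSL3 library of passage 23 for both genes, and for EIF2B5 also those of the MM1S untreated library of passage 16, the MM1S RSL3 library of passage 22 and the Fer-1 and RSL3 libraries of passages 7 and 22. EIF2B1 (-0.07, FDR 0.724), EIF2B2 (-0.17, FDR 0.304) and EIF2B3 (-0.01, FDR 0.979) were not called.

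EIF5 (chr14:103799881-103811362, plus strand), the GTPase-activating protein of eIF2, had the smallest FDR of all members. In MM1R cells it was at 118, 142 and 146 CPM without treatment, 185, 192 and 207 CPM with RSL3 and 222, 265 and 261 CPM with Fer-1 and RSL3. For MM1S, they were 131, 121 and 149 CPM, 267, 209 and 212 CPM, and 263, 257 and 263 CPM. RSL3 libraries were above all untreated ones, and those with Fer-1 and RSL3 lay above the RSL3 ones in MM1R cells but overlapped them in MM1S cells because of passage 16.

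EIF5 rose 1.57-fold upon RSL3 (log2 fold change 0.65 ± 0.085, FDR 0.000161, edgeR's quasi-likelihood test), with 0.53 (FDR 0.0249) in MM1R and 0.78 (FDR 0.00355) in MM1S cells. Within passages it was 0.65, 0.44 and 0.51 in MM1R and 1.03, 0.79 and 0.51 in MM1S cells, a narrower span than that of EIF2AK3. The averaged and the MM1S call were kept in all 18 omissions. The MM1R call was lost without the untreated library of passage 4 or 6 or any 1 of the 3 MM1R RSL3 libraries, with an FDR of up to 0.103.

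EIF1 (chr17:39845137-39848920, plus strand), which opposes initiation at poor start codons, was at 402, 437 and 439 CPM in untreated MM1R cells, 698, 523 and 676 CPM with RSL3 and 547, 506 and 488 CPM with Fer-1 and RSL3. The MM1S levels were 382, 556 and 423 CPM, 1325, 622 and 531 CPM, and 570.0, 596 and 543 CPM. The MM1R groups did not overlap, and in MM1S cells the RSL3 library of passage 23 was below the untreated library of passage 22. EIF1 rose 1.64-fold (log2 fold change 0.72 ± 0.173, FDR 0.0110, edgeR's quasi-likelihood test), with a value of 0.46 without the MM1S RSL3 library of passage 16, which kept the call.

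EIF1 within passages gained 0.80, 0.26 and 0.62 in MM1R and 1.79, 0.16 and 0.33 in MM1S cells on the log2 scale. By line, its log2 fold change was 0.57 (FDR 0.219) in MM1R and 0.86 (FDR 0.0578, and 0.0461 with the passage block) in MM1S cells. Its paralogue EIF1B had 24.2, 32.2 and 29.5 CPM untreated and 32.3, 32.4 and 33.2 CPM with RSL3 in MM1R cells, and 25.6, 27.2 and 26.1 CPM against 34.3, 23.3 and 23.6 CPM in MM1S cells. EIF1B was not called (log2 fold change 0.12, FDR 0.464), and whether the paralogues differed in response was not tested.

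EIF1AD (chr11:65764016-65769647, minus strand), a protein with an eIF1A-like domain, was at 52.2, 54.9 and 51.4 CPM in untreated and 57.2, 66.0 and 64.3 CPM in RSL3-treated MM1R cells. MM1S cells had 48.6, 54.4 and 53.0 CPM and 72.9, 59.6 and 56.9 CPM, without overlap in either line. Its rise of 1.20-fold (log2 fold change 0.26 ± 0.075, FDR 0.0271, edgeR's quasi-likelihood test) was lost in 6 of 18 omissions. These were the MM1R untreated libraries of passages 4 and 7, the MM1R RSL3 libraries of passages 6 and 7 and both the untreated and the RSL3 library of MM1S passage 16, with values of 0.21 to 0.25 and an FDR of up to 0.0720.

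EIF5B (chr2:99953834-100017789, plus strand), the GTPase that joins the ribosomal subunits, was at 209, 225 and 247 CPM in untreated and 167, 206 and 223 CPM in RSL3-treated MM1R cells. The MM1S values were 244, 244 and 262 CPM and 199.5, 211 and 209 CPM, with overlap in MM1R cells only. It fell by 0.23 ± 0.074 on the log2 scale (FDR 0.0417, edgeR's quasi-likelihood test), lower in all 6 passages (-0.33 to -0.12). This call was fragile, kept in 4 of 18 omissions, those of the untreated library of passage 4, the RSL3 library of passage 7 and the Fer-1 and RSL3 libraries of passages 4 and 16, and otherwise at an FDR of up to 0.107 and a value of -0.25 to -0.18.

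In the cap-binding and helicase group, 1 of 10 members rose and none fell, where 8.7% and 6.81% of all genes did. Averaged log2 fold changes ran from -0.29 (EIF4E2) to 0.37 (EIF4A2). EIF4E2, a cap-binding homologue of EIF4E, was lower in all 6 passages (-0.51 to -0.06), missed the threshold (FDR 0.0615, edgeR's quasi-likelihood test) and passed it with DESeq2 (FDR 0.0327) and with the passage block (FDR 0.00922). EIF4E3, an atypical cap-binding protein, was at 84.7, 100.1 and 87.6 CPM in untreated and 119.8, 125 and 106 CPM in RSL3-treated MM1R cells, and at 118, 118 and 109 CPM and 106, 129 and 129 CPM in MM1S cells. It rose by 0.23 ± 0.072 on the log2 scale (FDR 0.0437, edgeR's quasi-likelihood test), but was lower at passage 16, and the groups overlapped in MM1S cells. The call was kept in 4 of 18 omissions, those of the MM1R untreated library of passage 6, the MM1R RSL3 library of passage 7, the MM1S RSL3 library of passage 16 and the Fer-1 and RSL3 library of passage 4, with an FDR of up to 0.101 and a value of 0.20 to 0.24 in the others.

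EIF4E, the main cap-binding protein, was at 80.3, 95.4 and 95.8 CPM in untreated and 62.2, 83.9 and 80.1 CPM in RSL3-treated MM1R cells, and at 88.2, 90.4 and 107 CPM and 98.0, 82.1 and 97.0 CPM in MM1S cells. Its log2 fold change of -0.15 missed the threshold (FDR 0.322, edgeR's quasi-likelihood test). The 4E-binding proteins, which sequester EIF4E and which the ending of their symbols left out of the members, were at 81.4, 108 and 116 CPM untreated and 98.9, 113 and 116 CPM with RSL3 in MM1R cells for EIF4EBP1, and at 78.9, 127 and 97.8 CPM and 102, 149 and 122 CPM in MM1S cells. EIF4EBP1 missed the threshold (0.20, FDR 0.361) and passed it with the passage block (FDR 0.0221).

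EIF4EBP2 was at 234, 226 and 211 CPM untreated and 187, 213 and 198 CPM with RSL3 in MM1R cells, and at 241, 225 and 231 CPM and 166, 200.1 and 206 CPM in MM1S cells. It fell by 0.22 on the log2 scale (FDR 0.0388, edgeR's quasi-likelihood test). EIF4EBP3 had 0 to 4 counts per library and was not tested. EIF4ENIF1, which shuttles EIF4E into the nucleus, was lower with RSL3 in all 6 passages (-0.52 to -0.07), at an averaged -0.21 that missed the threshold (FDR 0.0972, edgeR's quasi-likelihood test) and passed it with the passage block (FDR 0.0338).

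EIF4A2, the second eIF4A helicase, varied by passage much as EIF2AK3 and EIF1 did. It had 431, 389 and 359 CPM untreated and 499.8, 362 and 533 CPM with RSL3 in MM1R cells, and 416, 425 and 463 CPM and 918, 471 and 449 CPM in MM1S cells. Within passages its log2 difference ran from -0.10 to 1.14, highest at passage 16, and the averaged 0.37 was not called (FDR 0.102, edgeR's quasi-likelihood test).

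EIF4G1, the eIF4F scaffold, had 891, 902 and 921 CPM untreated and 599.5, 809.6 and 836 CPM with RSL3 in MM1R cells, and 907, 1024 and 1068 CPM and 542, 929 and 983 CPM in MM1S cells. It was lower with RSL3 in all 6 passages, and its log2 fold change of -0.28 passed only with the passage block (FDR 0.165, and 0.0116 with the block, edgeR's quasi-likelihood test). EIF4G3 had 57.1, 52.1 and 44.7 CPM against 48.8, 46.3 and 57.6 CPM in MM1R cells, and 50.6, 50.3 and 52.9 CPM against 43.9, 46.1 and 44.8 CPM in MM1S cells, where the groups did not overlap. Its averaged value was -0.10 (FDR 0.392).

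The 13 measured eIF3 members, of the ribosome-bound platform of initiation, held 0 calls upon RSL3 in edgeR's quasi-likelihood test, where 8.7% of all genes rose and 6.81% fell. At an unadjusted p under 0.05 there were 2, where 30.2% of all genes passed, and DESeq2 called 0. Averaged log2 fold changes ran from -0.32 (EIF3B) to 0.28 (EIF3CL), with a smallest FDR of 0.0867. With the passage block EIF3B (FDR 0.00724) passed as lower and EIF3CL (FDR 0.0183) as higher, but EIF3CL and EIF3C are near-identical copies whose reads may be split by the counting. EIF5A2, the paralogue of EIF5A, was at 5.24, 4.57 and 6.08 CPM untreated and 5.05, 5.79 and 6.89 CPM with RSL3 in MM1R cells. In MM1S cells it was at 6.16, 8.30 and 9.23 CPM and at 8.01, 7.29 and 8.32 CPM, with overlap in both lines (log2 fold change 0.08, FDR 0.745).

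**Figure D3:**
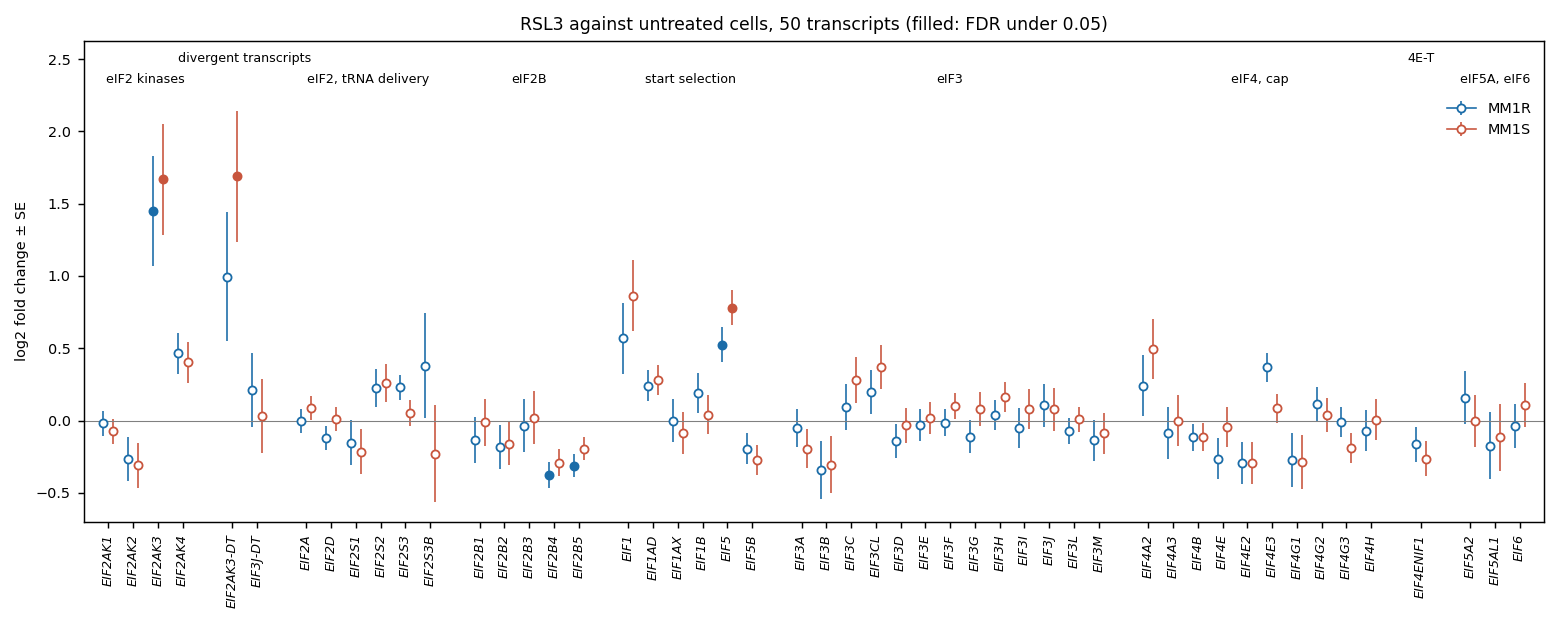
Log2 fold change of RSL3 against untreated (± SE) for the 50 members by role in MM1R and MM1S cells, with filled points at an FDR under 0.05. EIF2AK3 (1.45 and 1.67) is the highest point in MM1R cells, and the eIF3 group holds no filled point.

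By line, 4 members were called in MM1R and 3 in MM1S cells. In MM1R cells 2 rose (EIF5 and EIF2AK3) and 2 fell (EIF2B4 and EIF2B5), against 2% and 1.36% of all genes, and in MM1S cells 3 rose (EIF5, EIF2AK3 and EIF2AK3-DT) and 0 fell, against 2.5% and 1.17%. At an unadjusted p under 0.05 edgeR's quasi-likelihood test gave 10 members in MM1R and 12 in MM1S cells, where 18.5% and 19.5% of all genes passed, and DESeq2 called 6 in each, where it called 6.59% and 7.23%. With the passage block 7 were called in each line, against 13.1% and 13.3% of all genes, in MM1R cells with EIF4E3, EIF2AK4 and EIF2S3 in addition and in MM1S cells with EIF2B4, EIF5B, EIF3CL and EIF1. Left-out libraries moved the MM1R count from 4 to 0 (without the untreated library of passage 4 or 6 or the RSL3 library of passage 4 or 7) and to 7 (without the MM1S RSL3 library of passage 16), and the MM1S count to 1 without that library or any untreated MM1S library.

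No member was called for a difference between the lines in its RSL3 response. The interaction of line and RSL3 gave 0 members in edgeR's quasi-likelihood test, 0 with DESeq2 and 0 with the passage block, and 0% of all genes in edgeR. At an unadjusted p under 0.05 it gave 0 members and 1.55% of all genes. In both lines, 5 members had all RSL3 libraries above all untreated libraries (EIF2AK3, EIF2AK3-DT, EIF1AD, EIF5 and EIF2AK4), where 6.13% of all genes did, and 3 had them below (EIF2B4, EIF2B5 and EIF4B), where 5.52% did.

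The size of the response differed between passages. Each passage had 1 RSL3 and 1 untreated library, so a difference of passage cannot be told apart from one of single libraries. The RSL3 library of passage 16 also had the lowest total count (17635438) and the lowest TMM factor (0.864). Over the members, the SD of the log2 difference between RSL3 and untreated was 0.697 at passage 16, 0.436 at passage 4 and 0.381 at passage 7, against 0.264 at passage 22, 0.240 at passage 23 and 0.201 at passage 6. The same passages led over all tested genes, with SDs of 0.867, 0.648 and 0.645 against 0.452, 0.432 and 0.452. At passage 16, 12 members moved by more than 0.5 and at passage 6 none did, where 39.5% and 17.3% of all genes did. In all 6 passages 10 members were higher and 11 lower with RSL3, where 13.8% and 14.8% of all genes were.

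**Figure D4:**
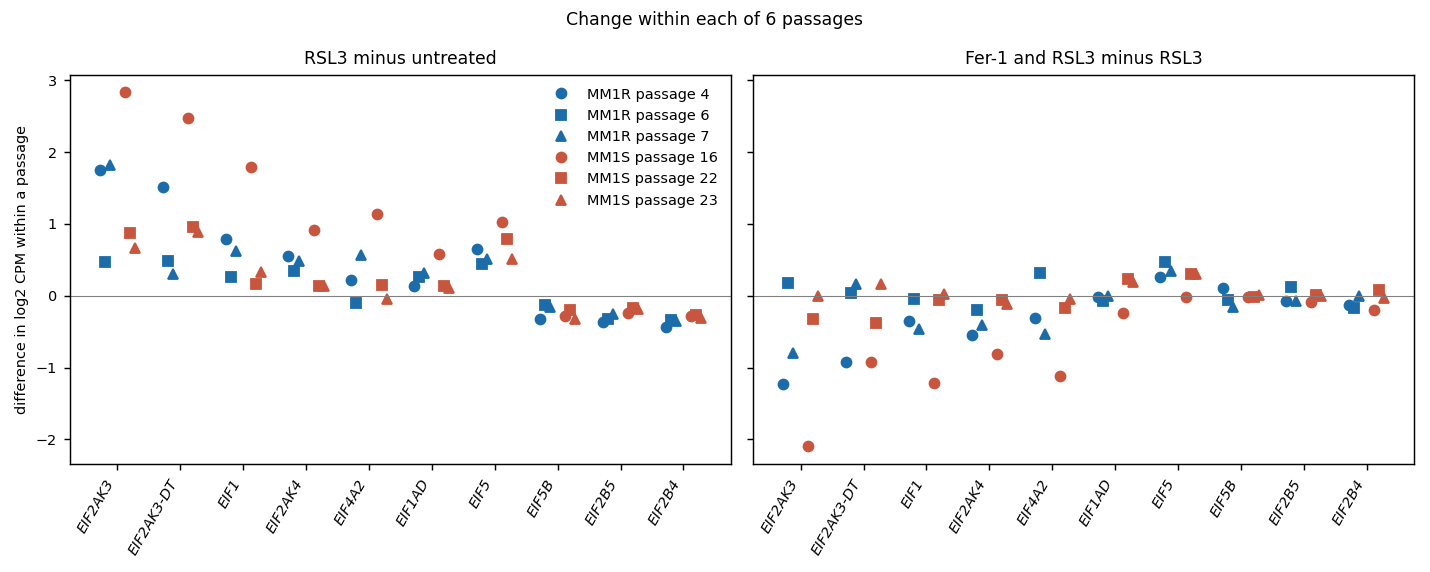
Within-passage log2 differences in CPM for 10 members, RSL3 minus untreated and Fer-1 and RSL3 minus RSL3, with 1 point per passage (6 passages). EIF2AK3 spans 0.47 to 2.84 upon RSL3, and EIF2B4 spans -0.44 to -0.27.

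Fer-1 before RSL3, compared with RSL3 alone, called no member. EdgeR's quasi-likelihood test gave 0 members averaged over lines where 0.119% of all genes were called, and 0 in MM1R and 0 in MM1S cells, where 0% were. At an unadjusted p under 0.05 there were 8 members averaged, 3 in MM1R and 4 in MM1S cells, where 12.8%, 6.17% and 5.75% of all genes passed. DESeq2 called 1 averaged (EIF2AK4, -0.37, FDR 0.0481) and 0 in each line, and the passage block called 1 averaged (EIF5, 0.27, FDR 0.0462), where 1.6% and 2.37% of all genes were called averaged. Without the MM1R library of passage 6 that stood apart, 0 members were called averaged or in MM1R cells, 6 and 2 had an unadjusted p under 0.05, where 10.2% and 3.51% of all genes did, and the block called 0.

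The averaged log2 differences of Fer-1 and RSL3 from RSL3 were -0.88 ± 0.265 for EIF2AK3 (FDR 0.193), -0.42 for EIF1 (FDR 0.329), -0.36 for EIF2AK4 (FDR 0.157), -0.36 for EIF4A2 (FDR 0.334) and 0.31 for EIF2AK2 (FDR 0.249) in edgeR's quasi-likelihood test. Without the library that stood apart they were -0.87 (FDR 0.314) for EIF2AK3, -0.41 (FDR 0.480) for EIF1, -0.39 (FDR 0.223) for EIF2AK4, -0.40 (FDR 0.414) for EIF4A2 and 0.23 (FDR 0.475) for EIF2AK2. Within passages, EIF2AK3 moved by -1.23, 0.18 and -0.79 in MM1R and by -2.10, -0.33 and 0.00 in MM1S cells. The drop was largest at passages 16 and 4, where its RSL3 level was highest. Both values rest on the same RSL3 libraries, so this link is built in. With Fer-1 and RSL3 the level of EIF2AK3 was 137 to 175 CPM over the 6 passages. EIF2AK4 was lower in all 6 passages (-0.82 to -0.05).

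EIF5, EIF2B4 and EIF2B5 are given separately, and no test compared the genes with each other. No group was given Fer-1 without RSL3, so an effect of Fer-1 by itself cannot be told apart. EIF5 was 0.27 higher with Fer-1 and RSL3 than with RSL3 (FDR 0.199, and 0.25 with FDR 0.348 without the library that stood apart), higher in 5 of 6 passages and at -0.02 in passage 16. EIF2B4 differed by -0.07 (FDR 0.684) and EIF2B5 by -0.02 (FDR 0.940), or by -0.07 (FDR 0.787) and -0.04 (FDR 0.896) without that library, with within-passage values between -0.20 and 0.12. None of these passed the threshold in edgeR's quasi-likelihood test.

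Against untreated cells, Fer-1 and RSL3 together raised 3 and lowered 5 members, averaged over lines, where 10.5% and 8.47% of all genes rose and fell. This comparison shares its untreated libraries with that of RSL3. EIF5 rose by 0.93 on the log2 scale (FDR 4.58e-06), EIF1AD by 0.27 (FDR 0.0176) and EIF3CL by 0.33 (FDR 0.0438), and EIF2B4 (-0.41, FDR 0.000451), EIF2B5 (-0.27, FDR 0.00284), EIF5B (-0.26, FDR 0.0207), EIF4B (-0.22, FDR 0.0328) and EIF4E (-0.29, FDR 0.0477) fell in edgeR's quasi-likelihood test. Not called were EIF2AK3 at 0.68 (FDR 0.0829), EIF2AK3-DT at 0.87 (FDR 0.0672, and 0.0173 with the passage block), EIF1 at 0.30 (FDR 0.247) and EIF2AK4 at 0.07 (FDR 0.665). Leaving out the library that stood apart gave 0.68 (FDR 0.121), 0.91 (FDR 0.0851), 0.30 (FDR 0.304) and 0.04 (FDR 0.834) for these 4.

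In these libraries EIF4B, the cofactor of the eIF4A helicase, was at 777, 796 and 763 CPM untreated and 582, 679 and 737 CPM with Fer-1 and RSL3 in MM1R cells, and at 779.5, 763 and 776 CPM and 629.8, 679.6 and 702 CPM in MM1S cells, with no overlap. EIF4E was at 63.1, 75.1 and 79.7 CPM in MM1R and 67.9, 81.8 and 87.8 CPM in MM1S cells given both agents, below all untreated libraries of its line. EIF3CL, at 10.5, 10.7 and 12.3 CPM untreated and 11.2, 13.7 and 15.7 CPM with both agents in MM1R cells, overlapped there, as it did in MM1S cells at the edge with 10.6, 11.5 and 11.4 CPM against 11.5, 15.4 and 16.5 CPM.

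Without the MM1R library that stood apart, 6 members were called, 2 up (EIF5, 0.90, FDR 1.84e-05, and EIF1AD, 0.26, FDR 0.0398) and 4 down (EIF2B4, -0.41, FDR 0.00147, EIF2B5, -0.29, FDR 0.00376, EIF5B, -0.27, FDR 0.0343, and EIF4E2), by edgeR's quasi-likelihood test, where 8.92% and 7.26% of all genes rose and fell. EIF4B (FDR 0.0526), EIF3CL (FDR 0.0779) and EIF4E (FDR 0.0691) then missed the threshold. EIF5, EIF2B4 and EIF2B5 kept their call in all 18 omissions of a library, EIF1AD in 17 (FDR 0.0514 without the MM1S untreated library of passage 16) and EIF5B in 14 (FDR of up to 0.0565 without the untreated library of passage 7 or 23 or the Fer-1 and RSL3 library of passage 4 or 16). EIF4B was lost in 8 omissions (FDR of up to 0.0872), those of the untreated libraries of passages 6, 16, 22 and 23 and the Fer-1 and RSL3 libraries of passages 4, 6, 16 and 22. EIF4E was kept only without the RSL3 library of passage 4 or 16, the untreated library of passage 4 or the Fer-1 and RSL3 library of passage 7 or 23, and otherwise had an FDR of up to 0.129. EIF3CL was kept only without the RSL3 or the Fer-1 and RSL3 library of passage 4 or 16 or the untreated library of passage 7, and otherwise had an FDR of up to 0.117. With the passage block 9 members rose and 11 fell, where 16.9% and 16.4% of all genes did. When the library that stood apart was also left out, an alternative chosen after seeing the data, 6 rose and 9 fell, where 14% and 14.1% of all genes did.

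The untreated lines differed in 4 members, 2 higher in MM1R cells and 2 lower, where 5.5% and 4.99% of all genes were higher and lower. EIF3L, an eIF3 subunit, was at 405, 427 and 426 CPM in MM1R and 361, 335 and 312 CPM in MM1S cells (log2 difference of MM1R from MM1S 0.32, FDR 0.0301, edgeR's quasi-likelihood test), and EIF2AK1 was 0.29 higher (FDR 0.0393). EIF2S3 was lower in MM1R cells (-0.34, FDR 0.0200), as was EIF4E3 (-0.34, FDR 0.0440). The 3 libraries of 1 line did not overlap those of the other for any of the 4. These 4 were called from the same libraries, so this adds no support.

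Leaving out an untreated library of passage 6, 7, 22 or 23 ended the line difference of EIF3L (FDR of up to 0.136 in edgeR's quasi-likelihood test) and of EIF2S3, which was also lost without that of passage 16 (FDR of up to 0.0740). The difference of EIF2AK1 was lost without any of these 5 or without the RSL3 libraries of passages 6, 22 and 23 or the Fer-1 and RSL3 library of passage 22 (FDR of up to 0.178). That of EIF4E3 was kept only without the untreated library of passage 6, the RSL3 library of passage 16 or the Fer-1 and RSL3 library of passage 4 (FDR otherwise of up to 0.157). Without the untreated library of MM1R passage 7 or of MM1S passage 22 or 23 no line difference was called. EIF5A2 (-0.58, FDR 0.0514) missed the threshold and passed it with DESeq2. Passage numbers and lines go together here, so a difference of passage age cannot be told apart from one of line.

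Other genes of translational control were taken from a list of 57, chosen with earlier results of these data known, of which 49 could be tested. Upon RSL3 8 rose and 1 fell, where 8.7% and 6.81% of all genes did. With the passage block 9 rose and 6 fell, against 14.9% and 15.5% of all genes. In the eIF2 signalling list 6 of 16 rose, and its median log2 fold change was 0.13 against -0.000133 over all genes. For genes chosen in that way this is a description and no independent support. PPP1R15A (GADD34), the phosphatase subunit that reverses eIF2 phosphorylation, was at 52.4, 35.7 and 38.0 CPM untreated and 355, 92.9 and 597 CPM with RSL3 in MM1R cells, and at 37.5, 82.5 and 61.4 CPM and 1023, 191 and 157 CPM in MM1S cells (log2 fold change 2.98, FDR 0.000531, edgeR's quasi-likelihood test). The stress factor DDIT3 (CHOP) was at 10.2, 7.51 and 7.24 CPM and 71.1, 21.1 and 55.3 CPM with RSL3 in MM1R cells, and at 7.61, 15.7 and 9.53 CPM and 101, 47.0 and 42.2 CPM in MM1S cells (2.55, FDR 6.6e-05).

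ATF4, the transcription factor translated when eIF2 is phosphorylated, was at 487, 523 and 505 CPM untreated and 953, 868 and 976 CPM with RSL3 in MM1R cells, and at 435, 865 and 549 CPM and 1436, 1058 and 1019.9 CPM in MM1S cells (log2 fold change 0.91, FDR 0.000468, edgeR's quasi-likelihood test). For PPP1R15A, DDIT3 and ATF4 all RSL3 libraries lay above the untreated ones. TRIB3 (0.65, FDR 0.0133), DNAJC3 (0.37, FDR 0.0200) and the phosphatase subunit PPP1CB (0.26, FDR 0.0401) rose as well. GCN1, the coactivator of GCN2, was the 1 gene that fell (-0.35, FDR 0.0467) and was named after its value was seen.

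Elsewhere in the lists, DDIT4, an inhibitor of TOR signalling, rose by 2.73 (FDR 0.000307, edgeR's quasi-likelihood test) as the 1 of 18 cap and TOR genes. EEF1D rose by 0.69 (FDR 0.0455, same test) as the 1 of 8 elongation genes. Of 7 ribosome recycling genes this test called 0, with 0 at an unadjusted p under 0.05, where 30.2% of all genes passed, and 0 by DESeq2. The passage block called 2 recycling genes, both lower. It called 1 elongation gene higher and 2 lower, and 2 cap and TOR genes higher and 1 lower. EEF1D had only 15 to 54 counts per library and is among the symbols with more than 1 row, as EIF5A and EIF3K are, so its value may not describe the gene. The calls of GCN1, EEF1D and PPP1CB were lost in 13, 12 and 10 of 18 omissions of a library, with an FDR of up to 0.123, 0.133 and 0.104, and each of them without the RSL3 library of passage 4 or 16 or the untreated library of passage 4, 6, 16 or 22. The within-passage log2 difference of PPP1R15A ran from 1.21 to 4.77 and that of DDIT3 from 1.47 to 3.71, both highest at passage 16. With Fer-1 and RSL3, DDIT3 was at 60.4, 44.1 and 69.5 CPM in MM1R and 73.2, 63.9 and 75.7 CPM in MM1S cells, and PPP1R15A at 141, 151 and 152 CPM and 239, 288 and 213 CPM.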

How the data were processed

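RNA from 18 libraries of 2 myeloma lines was extracted with a column kit, prepared with standard BGI protocols and sequenced in pairs. The authors checked reads with FastQC 0.11.5, aligned them to hg19 with STAR 2.7.3a and deposited raw read counts for 43735 rows, which were used here. The counting tool, annotation and use of strand are not given in the sources used here, so paralogues, copies and overlapping or antisense transcripts are uncertain. A deposited table of counts divided by size factors (a normalized signal) was not used. All sample columns were matched to a labelled sample, and 0 columns of other samples were present.

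Rows with low counts were removed with filterByExpr (minimum count 10), which left 14281 genes with 99.9% of all counts, and 15877 rows had no count. TMM factors were 0.864 to 1.06. Contrasts were tested by edgeR's quasi-likelihood method in 1 model of 6 group means (12 residual degrees of freedom) with Benjamini-Hochberg adjustment over all tested genes (FDR), calls at an FDR under 0.05, in R 4.3.3 with edgeR 4.0.16 and DESeq2 1.42.0. Within-passage differences are of log2 CPM with a prior count of 2 and were not tested.

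Replicate numbers stand for passages of a line in the labels and pair the libraries. After the group means were subtracted, same-passage libraries correlated at a median r of 0.250 in MM1R (9 pairs, 0.0338 to 0.516) and 0.416 in MM1S cells (9 pairs, 0.216 to 0.681). Blocking on passage (8 residual degrees of freedom), DESeq2, RLE and upper-quartile scaling, no or a stricter filter, only the groups compared, a further fold threshold and leaving out each library were alternatives. Replicates differed beyond sampling noise (chi-square per degree of freedom 8.26 to 171 over 18 pairs).

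Members and lists were chosen with earlier results of these data known. Named are the kinases, the eIF2 subunits, EIF4E and its binding proteins, 4 paralogue pairs, every called member and up to 8 called genes of the other lists. Gene positions come from a GENCODE annotation lifted to hg19, and lengths are of the Ensembl canonical transcript. Steps were tested on simulated data.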

Additional observations from a re-analysis of the deposited data

How the results depend on the processing

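Of 1287 single-gene values recomputed under other settings, 1166 kept their direction and their side of the threshold, 70 lost a call, 51 gained one and 0 reversed, and of 2970 values with 1 library left out 2741 kept both, 210 lost a call, 19 gained one and 0 reversed. The passage block, which pairs the libraries, moved the number of members called upon RSL3 from 10 to 19 averaged over lines, from 4 to 7 in MM1R and from 3 to 7 in MM1S cells, that for Fer-1 and RSL3 against RSL3 from 0 to 1 (averaged) and against untreated from 8 to 20 (15 when the library that stood apart was also left out, an alternative chosen after seeing the data), and that of the other translational genes from 9 to 15. The block could not be fitted to the untreated lines, which share no passage. Requiring also a log2 fold change over 1 left 2 members averaged, 1 in MM1R cells, 0 for Fer-1 and RSL3 against untreated, 0 between the lines and 3 of the other genes. Fitting only the groups compared gave 2 members in MM1R cells, 0 in MM1S cells and 1 between the lines (EIF3B). DESeq2 called 6 members in MM1S cells and 1 for Fer-1 and RSL3 against RSL3. Without a filter on low counts, 2 members (EIF2AK3 and EIF1) were called for Fer-1 and RSL3 against RSL3 averaged, 1 in MM1R and 1 in MM1S cells (EIF2AK3 in both), 5 against untreated and 0 between the lines. The SE of EIF2AK3 was then 0.113 in place of 0.270, and the cause of the other moves was not tested.

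With 1 library left out, the number of members called upon RSL3 was 7 to 11 averaged, 0 to 7 in MM1R and 1 to 4 in MM1S cells. It was 0 for Fer-1 and RSL3 against RSL3 (averaged and in each line), 4 to 14 against untreated, 0 for the interaction and 0 to 4 between the lines, and 6 to 9 for the other genes. Against untreated it was 4 without the MM1S untreated library of passage 16 or 23 and 14 without the MM1S RSL3 library of passage 16. Of the 19 members called upon RSL3 with the passage block 9 were not called without it, so small differences depend on the pairing, and EIF2AK3-DT, EIF2S3B and EEF1D rest on few counts.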
